A study of Mus musculus with 2 samples.

Results

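Ly6a, Ly6c1, Ly6c2 and Ly6e encode small surface proteins of the lymphocyte antigen 6 family, and they were followed here in splenic donor T cells after allogeneic hematopoietic cell transplantation. The members were the 4 rows of the gene list that carry these symbols, among 32285 genes, and none was chosen by its values. BALB/c (H-2d) recipients had been lethally irradiated and given T cell-depleted bone marrow and naive splenic T cells of B6 (H-2b) donors. Live spleen cells that were CD45+, TCRβ+, H2Kb+ and H2Kd- were sorted and profiled by droplet single-cell RNA sequencing in 2 libraries, 1 from day +7 and 1 from day +14. Both groups share the donor, recipient, irradiation and marrow, and both library names carry the word PBS. Per the paper, cells were pooled from 5 spleens, so each day is 1 pooled sample with no replicate, and day and library cannot be told apart. The growth text of both libraries names a day +7 sort, and the days used here are those of the sample titles.

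Ly6 proteins carry a compact disulfide-bonded domain and are held on the outer leaflet of the membrane by a glycosylphosphatidylinositol (GPI) anchor. Ly6a is stem cell antigen 1 (Sca-1), which marks hematopoietic stem cells and rises on activated T cells and after interferon. Ly6c1 and Ly6c2 encode the closely related Ly6C antigens, which are used as markers of inflammatory monocytes and of effector and memory CD8 T cells. Ly6e is thymic shared antigen 1 (Sca-2), a marker of immature thymocytes that interferon also induces.

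The 4 genes lie within 156.92 kb of mouse chromosome 15 in mm10 (GRCm38, GENCODE M21). Ly6e is on the plus strand at chr15:74955051-74959905. The other 3 are on the minus strand, with Ly6a (ENSMUSG00000075602) at chr15:74994877-74998031, Ly6c1 (ENSMUSG00000079018) at chr15:75044018-75048830 and Ly6c2 (ENSMUSG00000022584) at chr15:75108158-75111970. No other annotated gene overlaps any of the 4 (Ly6e is ENSMUSG00000022587). Over the last 500 bases of their longest coding transcripts, Ly6c1 and Ly6c2 were 95.5% identical, Ly6a was 84.4% identical to Ly6c1 and 85.9% identical to Ly6c2, and Ly6e was at most 50.6% identical to the others. Of the 50-base stretches of that end, 90 of 451 of Ly6c1 and 93 of 451 of Ly6c2 occurred in a transcript of another gene, against 20 of 451 of Ly6a and 0 of 451 of Ly6e, so counts of the Ly6c pair are the least certain of the 4 in their assignment. Which end of the transcript was sequenced is not given in the sources used here.

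The start regions of Ly6c1 and Ly6c2 are shown because these near-identical transcripts were counted at very different levels in the same T cells. Each runs 5′ to 3′ on the minus strand for the 250 bases before the RefSeq start (GRCm38.p6), in no annotated exon. Capitals mark the stretches of at least 12 bases that both share.
Ly6c1 (chr15:75048838-75049087): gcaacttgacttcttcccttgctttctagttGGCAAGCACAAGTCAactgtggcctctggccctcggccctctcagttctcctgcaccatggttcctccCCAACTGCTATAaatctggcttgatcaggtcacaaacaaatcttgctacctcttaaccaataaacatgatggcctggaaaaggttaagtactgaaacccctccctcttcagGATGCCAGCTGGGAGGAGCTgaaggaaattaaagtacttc
Ly6c2 (chr15:75111972-75112221): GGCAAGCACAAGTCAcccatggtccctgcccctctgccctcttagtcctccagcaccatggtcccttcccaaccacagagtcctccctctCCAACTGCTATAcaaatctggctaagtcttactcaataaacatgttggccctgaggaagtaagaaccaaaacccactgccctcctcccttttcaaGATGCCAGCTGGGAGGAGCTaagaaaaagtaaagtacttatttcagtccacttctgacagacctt
The capitals cover 47 bases of each and their longest run is 20 bases. When the sequences were aligned end to end they were 59.0% identical. The letters TTCNNNGAA, the GAS motif of interferon-activated STAT factors, and the core of the interferon-stimulated response element (GAAA, any 2 bases, GAAA) were searched for on both strands. Neither occurred in either window, while 7.02% and 2.98% of 32851 windows of that length held them. RefSeq windows for Ly6a and Ly6e were not used here.

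The libraries held 7355 barcodes at day +7 and 8043 at day +14, of which 20 occurred in both. Of these, 7179 and 7794 had 500 to 7500 detected genes and at most 15% mitochondrial counts, with medians of 9210 and 8144 unique molecular identifiers (UMIs, the count of captured RNA molecules) per cell. T cells had at least 2 UMIs of the CD3 chain and T cell receptor constant genes and fell in no other lineage, which gave 6816 and 7515 cells. They were divided into CD4 cells (451 and 691), CD8 cells (5717 and 5867) and Foxp3+ cells without Cd8 UMIs (40 and 39) by their UMIs of Cd4, Cd8a, Cd8b1 and Foxp3. Cycling cells had at least 20, and non-cycling cells at most 5, UMIs of 16 mitotic genes per 10000. Neutrophils, which the sort should have removed, were gated by 9 granule and alarmin genes and numbered 43 and 75. In this gate the T cell genes summed to 927 and 2394 counts per 1000000 UMIs (CPM), against 5998 and 7619 in T cells.

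Ly6a, Ly6c2 and Ly6e were detected in most T cells, whereas Ly6c1 was nearly absent. In all T cells Ly6a was at 660.1 CPM at day +7 and 629 at day +14, Ly6e at 796 and 701, and Ly6c2 at 482 and 418. Ly6c1 had 24 UMIs in 17 of 6816 T cells at day +7 and 6 UMIs in 6 of 7515 at day +14, or 0.305 CPM (95% exact Poisson interval 0.195 to 0.453) and 0.0748 CPM (0.0274 to 0.163). All intervals given here cover counting error only.

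The 3 detected members did not share 1 order across cell types. Ly6a was highest in Foxp3+ cells, at 1798 CPM (1666 to 1938) at day +7 and 1803 CPM (1642 to 1974) at day +14, followed by CD4 cells at 1192 and 1186, CD8 cells at 592 and 546, and the neutrophil gate at 145 and 237. Ly6c2 ran in the opposite order, with 84.3 CPM (57.6 to 119) and 139.9 CPM (98.0 to 194) in Foxp3+ cells, 204 and 229.7 in CD4 cells, 519 and 449 in CD8 cells, and 1503 and 1650.0 in the neutrophil gate. Ly6e varied least: Foxp3+ cells held 1164 and 1282 CPM, CD4 cells 994 and 997, CD8 cells 769 and 654, and the neutrophil gate 522 and 515. No neighbors in these orders had overlapping intervals on either day. CD8 cells with neither Foxp3 nor Cd4 UMIs made up most T cells, so values over all T cells lie close to theirs.

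**Figure D1:**
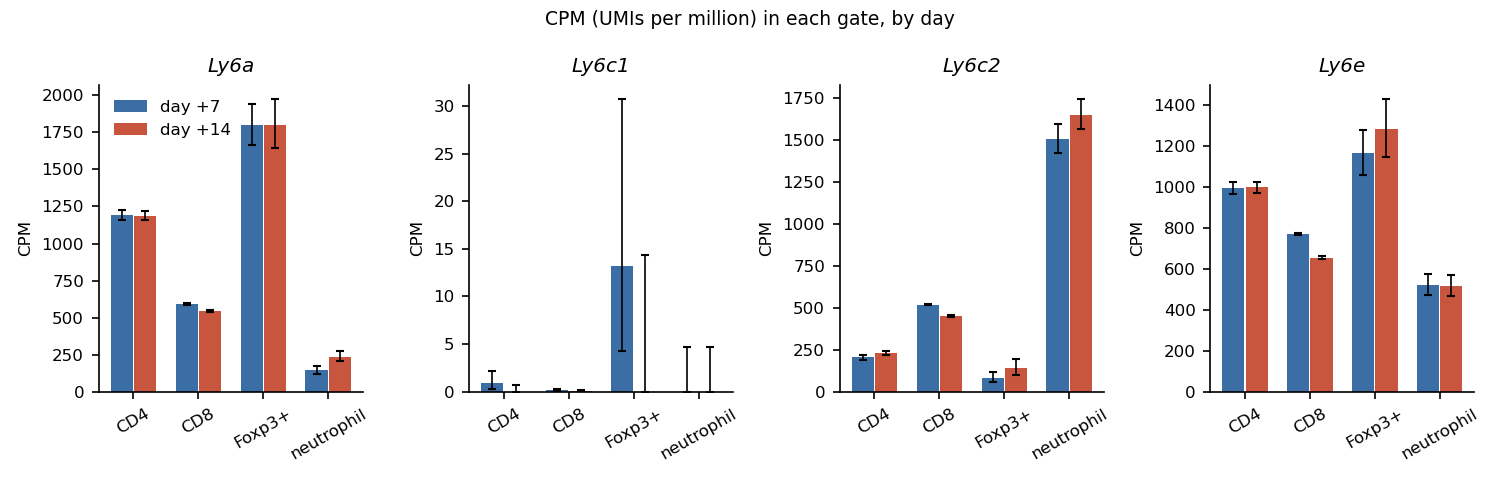
CPM of each gene on linear axes, with a separate scale for each, in CD4, CD8, Foxp3+ and neutrophil-gated cells at day +7 (blue) and day +14 (red). Bars are sums over the cells of a gate and whiskers are 95% exact Poisson intervals, with Ly6a highest in Foxp3+ cells (1798 and 1803 CPM) and Ly6c2 highest in the neutrophil gate (1503 and 1650.0 CPM).

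CD4 and CD8 cells were compared within each library. Ly6a was 2.02-fold (95% exact interval 1.96 to 2.07) higher in CD4 than in CD8 cells at day +7 and 2.17-fold (2.11 to 2.23) higher at day +14. Of all genes that averaged 10 CPM or more over both gates, 1.36% and 2.61% were more than 2-fold higher in CD4 cells on these days. Ly6c2 was at 0.394 (0.369 to 0.42) of its CD8 level in CD4 cells at day +7, where 0.788% of genes were more than 2-fold lower, and at 0.511 (0.481 to 0.542) at day +14, short of 2-fold, where 0.779% were. Ly6e was 1.29-fold (1.25 to 1.33) and 1.53-fold (1.48 to 1.57) higher in CD4 cells. Thy1, the GPI-anchored T cell antigen read as a reference for an anchored protein, was at 0.786 and 0.763 of its CD8 level. The Ly6a difference was of like size in non-cycling cells (1.98-fold and 2.07-fold) and in cycling cells (2.15-fold and 2.07-fold).

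Foxp3+ cells extended the CD4 pattern. Their Ly6a was 1.51-fold (1.39 to 1.63) that of CD4 cells at day +7 and 1.52-fold (1.38 to 1.67) at day +14, and their Ly6e 1.17-fold (1.06 to 1.29) and 1.29-fold (1.15 to 1.44). Their Ly6c2 was at 0.412 (0.28 to 0.586) and 0.609 (0.424 to 0.848) of the CD4 level, past 2-fold only at day +7, where 4.69% (6.92% at day +14) of genes were more than 2-fold lower. The 9 regulatory T cell genes summed to 4310.1 and 5579 CPM in this gate, against 899.8 and 1158 in CD4 cells, with Ikzf2 (Helios) at 574 and 1022 CPM and Ctla4 at 379 and 769. Leaving out cells without Il2ra, Ikzf2 or Ctla4 removed 2 cells at day +7 and none at day +14, and Ly6a was then 1821 and 1803 CPM. Most Foxp3 UMIs at day +7 lay elsewhere, in 150 T cells that also had a Cd8 UMI (398 UMIs, against 94 in the gate), and in these Ly6a was 769 CPM, Ly6c2 353 and Ly6e 854. At day +14, 49 such cells had 882, 316 and 889 CPM. The levels of all 3 genes in these cells lay between those of CD8 and Foxp3+ cells.

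T cells outside the gates also lay between or near them. Cells with both Cd4 and Cd8 UMIs numbered 198 and 505 and had Ly6a at 863 and 754 CPM, Ly6c2 at 329.7 and 295, and Ly6e at 883 and 783. Cells with no UMI of Cd4, Cd8a, Cd8b1 or Foxp3 numbered 274 and 378 and had Ly6a at 1041 and 1202 CPM, a level near that of CD4 cells, with Ly6c2 at 374 and 459.

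By CPM, Ly6c2 was lower in cycling than in non-cycling cells of both lineages. In CD8 cells it was 767 CPM without and 432 with cycling at day +7, a ratio of 0.563 (0.549 to 0.576), and 567 and 416 CPM at day +14, a ratio of 0.733 (0.713 to 0.754). In CD4 cells the ratios were 0.597 (0.514 to 0.693) and 0.693 (0.606 to 0.791). Cycling CD8 cells were deeper, with medians of 13437 and 12888 UMIs against 6786.5 and 5522 in non-cycling ones. At day +7, 2203 cycling CD8 cells held 14774 Ly6c2 UMIs and 2070 non-cycling ones 11697. At day +14, 2387 held 14833 and 2132 held 7526. The CPM ratios thus give Ly6c2 as a part of all UMIs, and Ly6c2 UMIs per CD8 cell were not lower with cycling. Ly6a and Ly6e moved far less, with ratios of cycling over non-cycling CD8 cells of 1.04 and 0.88 for Ly6a and of 0.962 and 1.09 for Ly6e, which went opposite ways on the 2 days. None of these passed 2-fold, against 1.61% and 2.06% of genes lower and 7.46% and 5.98% higher in cycling CD8 cells.

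From day +7 to day +14 the members changed little. In all T cells the log2 ratio of day +14 over day +7 was -0.07 (-0.09 to -0.05) for Ly6a, -0.20 (-0.23 to -0.18) for Ly6c2 and -0.18 (-0.20 to -0.17) for Ly6e, and none of the 3 that reached 10 CPM was past 2-fold, against 3.12% of all genes. The median of all genes with at least 100 UMIs in each library was itself 0.23 higher at day +14, and relative to it the ratios were -0.29, -0.43 and -0.41. The sign for Ly6a was not stable, since its ratio was 0.094 as a mean over cells and 0.024 (-0.0059 to 0.053) when cells were thinned to 4000 UMIs. Thinning left out cells below that depth, 140 of 6816 at day +7 and 886 of 7515 at day +14. The remaining cells were gated anew. For Ly6c1 the ratio was -2.03 (-3.61 to -0.70) from 24 and 6 UMIs.

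CD8 cells, the bulk of the T cells, had ratios close to these. They were -0.11 (-0.14 to -0.09) for Ly6a, -0.21 (-0.23 to -0.19) for Ly6c2 and -0.23 (-0.25 to -0.22) for Ly6e, with 3.2% of all genes past 2-fold and a median of all genes 0.22 higher. In CD4 cells the ratios were -0.01 (-0.06 to 0.05) for Ly6a and 0.00 (-0.05 to 0.06) for Ly6e, both with intervals that include 0, and 0.17 (0.04 to 0.29) for Ly6c2, which became -0.0098 (-0.22 to 0.20) with cells thinned to 4000 UMIs. Thinning left out 13 of 451 CD4 cells at day +7 and 199 of 691 at day +14. Of all genes, 4.73% were past 2-fold in CD4 cells and 19.9% in Foxp3+ cells, where Ly6a had a ratio of 0.0035 (-0.17 to 0.18), Ly6e of 0.14 (-0.07 to 0.35) and Ly6c2 of 0.73 (0.0033 to 1.47) from 32 and 36 UMIs. A single Foxp3+ cell held 19 of the 36 Ly6c2 UMIs of day +14, against at most 11 of the 32 at day +7. The interval does not cover this spread between cells, and no rise is read from the ratio. With every T cell that had a Foxp3 UMI the Ly6c2 ratio was -0.20 (-0.40 to -0.0025).

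Within CD8 cells the ratios of Ly6c2 and Ly6e were further below 0 in those not cycling. Ly6c2 went from 767 to 567 CPM in non-cycling CD8 cells, a log2 ratio of -0.44 (-0.48 to -0.40), and from 432 to 416 CPM in cycling ones, a ratio of -0.05 (-0.09 to -0.02). Ly6e went from 794 to 620.3 CPM in non-cycling cells (-0.36, with an interval of -0.40 to -0.32) and from 764 to 679 in cycling cells (-0.17, with an interval of -0.20 to -0.14). Ly6a was 577 and 609 CPM in non-cycling cells, a ratio of 0.08 (0.03 to 0.12), which is -0.13 relative to the median of all genes, and 598 and 536 in cycling cells, a ratio of -0.16 (-0.19 to -0.13). No ratio of these cells passed 2-fold, against 4.75% of genes in non-cycling and 2.83% in cycling CD8 cells.

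**Figure D2:**
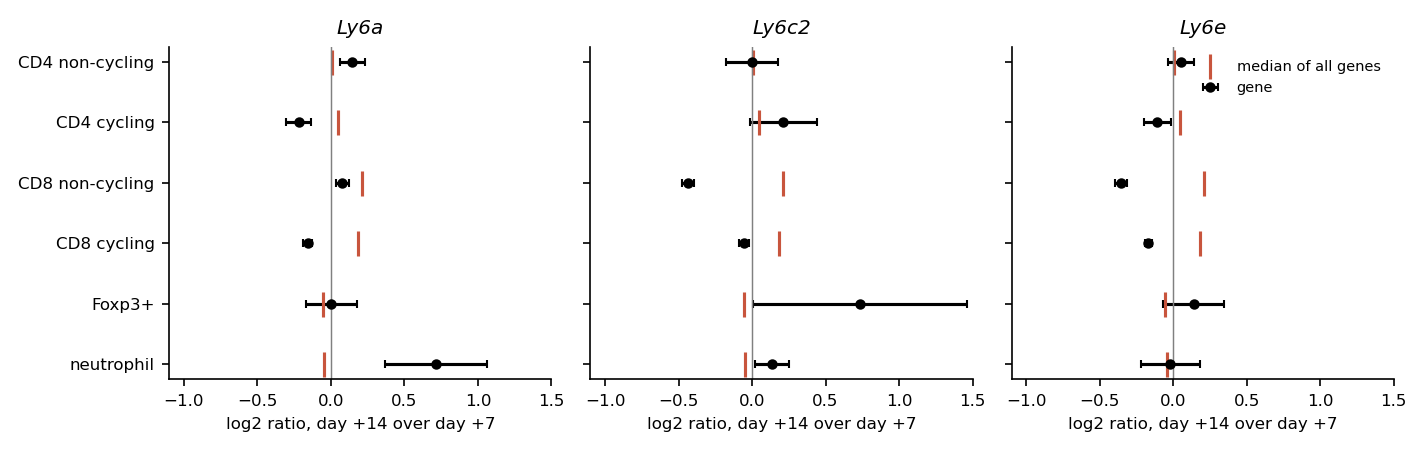
Log2 ratios of CPM at day +14 over day +7 of Ly6a, Ly6c2 and Ly6e in 6 gates. Points are ratios with 95% exact conditional binomial intervals, red ticks are the median over all genes with at least 100 UMIs in each library, and in non-cycling CD8 cells Ly6c2 (-0.44) and Ly6e (-0.36) lie below 0 while the tick lies at 0.21.

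The neutrophil gate showed Ly6c2 at a higher level than any T cell gate, and Ly6g, the granulocyte antigen of the same family, at 293 CPM (256 to 333) and 394 CPM (352 to 441), against 0.267 and 0.137 in T cells. Within this gate Ly6a was lower in cells with few T cell UMIs, and the source of that difference was not tested. In the 34 and 46 gated cells with fewer than 2 UMIs of the T cell genes, Ly6a was 51.2 CPM (32.8 to 76.2) and 44.8 CPM (23.9 to 76.6), against 145 and 237 in the whole gate, while Ly6c2 was 1579.6 and 1913 CPM. Their Ly6e was 495 CPM (434 to 563) and 269 CPM (213 to 336), against 522 and 515 in the whole gate. The log2 ratio of Ly6a between the days went from 0.71 (0.37 to 1.06) in the whole gate to -0.19 (-1.29 to 0.84) in these cells. In 124 erythroid cells of day +7, Ly6a was 619 CPM (594 to 645) with T cell genes at 602 CPM and Thy1 at 48.5, while Ly6c2 was 59.8 CPM (52.2 to 68.2).

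The spread over individual cells set Ly6c2 apart from the other members. To hold depth equal, cells were thinned to 4000 UMIs, which left out 140 of 6816 T cells at day +7 and 886 of 7515 at day +14. In thinned CD8 cells Ly6c2 had a median of 1 UMI on both days, with a 95th percentile of 10 and 8 and a maximum of 29 and 27. Its variance was 5.68 and 4.19 times its mean, a ratio reached by 9 of 435 and 7 of 446 genes with means between 1 and 10 UMIs. For Ly6a the ratio was 2.35 and 2.14, reached by 32 and 45 of these genes, and for Ly6e 1.62 and 1.60, reached by 73 and 83. The median of these genes was 1.19 and 1.20. In CD4 cells Ly6c2 again had the widest spread of the 3, with 5.89 and 5.37 times its mean.

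In thinned cells, Ly6c2 was detected in 53.6% (exact Clopper-Pearson interval 52.2 to 54.9) of CD8 cells at day +7 and 57.1% (55.7 to 58.4) at day +14, and in 30.4% (26.1 to 34.9) and 31.3% (27.2 to 35.6) of CD4 cells. Without thinning the shares were 65.4% and 68.1% of CD8 cells and 38.4% and 39.8% of CD4 cells, at median depths of 9187 and 8531 UMIs in CD8 cells and 8228 and 5324 in CD4 cells. As a background for Ly6c2, 7.62% (3.35 to 14.5) of 105 thinned erythroid cells had a UMI at day +7 and 3 of 10 at day +14, with an interval of 6.67% to 65.2% that covers the shares of CD8 and CD4 cells on that day. Without thinning it was 18.5% (12.1 to 26.5) of 124 erythroid cells of day +7, at a median of 32548.5 UMIs. The CD8 share went up between the days and the CPM went down, so no order of the days is read from it. In thinned cycling and non-cycling CD8 cells the share was 49.6% and 58.1% at day +7. At day +14 it was 58.3% and 55.7%, so the lower CPM of cycling cells had no lower share beside it on that day. Ly6a was detected in 76.4% and 79.7% of thinned CD8 cells and in 96.3% and 95.3% of CD4 cells, with 22.0% and 30.9% of neutrophil-gated cells beside them. Of the 105 thinned erythroid cells of day +7, 81.9% (73.2 to 88.7) had Ly6a, an interval that includes the CD8 share. Ly6e was detected in 91.5% and 87.6% of CD8 and 94.1% and 94.7% of CD4 cells. Beside them stood 70.7% and 45.5% of neutrophil-gated cells and 77.1% of erythroid cells of day +7. At day +14, 3 of 10 thinned erythroid cells had Ly6a and 5 of 10 had Ly6e. Ly6c1 was found in 10 of 6676 and 2 of 6629 thinned T cells, a share of 0.15% (0.0719 to 0.275) and 0.0302% (0.00365 to 0.109). In the neutrophil gate it was found in 0 of 41 and 0 of 55 cells, which allows shares of up to 7.32% and 5.45%. At day +7, 5 of its 24 T cell UMIs were in 3 of the 40 Foxp3+ cells.

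Ly6a and Ly6c2 ran in opposite directions across cell types but together within the CD8 gates, and less evenly within non-cycling CD4 cells. Over 12 sums (CD4 and CD8 cells, each cycling and non-cycling, Foxp3+ cells and the neutrophil gate, on both days) the Pearson r of log2(CPM + 1) between Ly6a and Ly6c2 was -0.947, and over the 10 sums without neutrophils it was -0.918. These sums share libraries and depth, so r is given as a description. Inside the non-cycling CD8 gate, thinned cells were divided by their own Ly6c2 UMIs. Ly6a was 457 CPM in the 843 cells with none, 546 in the 372 cells with 1 or 2, and 726 in the 798 cells with 3 or more at day +7, and 501, 655 and 774 CPM at day +14. Cells with 3 or more Ly6c2 UMIs thus had 1.59-fold (1.49 to 1.70) and 1.55-fold (1.44 to 1.66) as much Ly6a as cells with none, with Ly6c2 left out of the totals. In cycling CD8 cells the ratio was 1.67 (1.57 to 1.77) and 1.82 (1.70 to 1.93). In non-cycling CD4 cells, where 41 and 32 cells had 3 or more Ly6c2 UMIs, it was 1.29 (1.11 to 1.49) and 1.47 (1.26 to 1.71). The steps there were uneven at day +7, with Ly6a at 1116, 1065 and 1435 CPM. Divided by their Ly6a UMIs instead, these CD4 cells had Ly6c2 at 154, 350 and 322 CPM at day +7. At day +14 the values were 156, 113 and 327 CPM.

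Ly6e followed the same course in CD8 cells. Its ratio was 1.23 (1.16 to 1.29) and 1.38 (1.29 to 1.48) in non-cycling CD8 cells and 1.35 (1.28 to 1.43) and 1.29 (1.21 to 1.36) in cycling CD8 cells. In non-cycling CD4 cells it was 1.07 (0.904 to 1.26), an interval that includes 1, and 1.30 (1.09 to 1.54). Divided by their Ly6e UMIs, these CD4 cells had Ly6c2 falling over the steps at day +7, at 446, 386 and 291 CPM. At day +14 it rose, at 156, 239 and 277 CPM. Between non-cycling CD8 cells with none and with 3 or more Ly6c2 UMIs, the summed T cell genes went from 7228 to 6965 CPM at day +7 and from 9359 to 9685 at day +14, Cd8a and Cd8b1 together from 942 to 1126 and from 1292 to 1409.6, and the neutrophil genes from 28.2 to 21.6 and from 58.9 to 65.3. Their part in the difference was not tested.

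**Figure D3:**
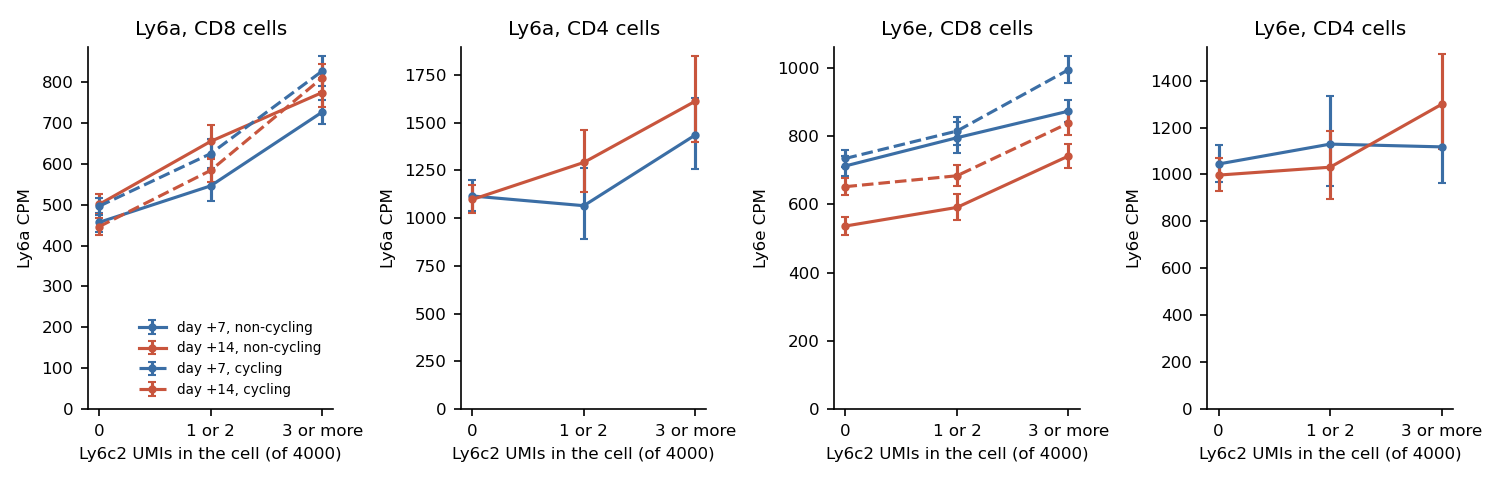
CPM of Ly6a and Ly6e (linear axes from 0) in thinned CD8 and CD4 cells divided by the number of Ly6c2 UMIs among the 4000 of each cell. Points are sums over cells with 95% exact Poisson intervals for day +7 (blue) and day +14 (red), solid for non-cycling and dashed for cycling cells, and Ly6a in non-cycling CD8 cells is higher in each step, from 457 to 726 CPM and from 501 to 774 CPM.

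The effector and memory list differed along Ly6c2 in the same non-cycling CD8 cells. Of the list of 40 effector and memory genes, 39 at day +7 and 36 at day +14 averaged 10 CPM or more, with medians of 0.27 and 0.36 on the log2 scale for cells with 3 or more over cells with 0 Ly6c2 UMIs, beside -0.01 and -0.0057 over all genes. At day +7, 1 was more than 2-fold higher, against 0.206% of all genes, and 2 were more than 2-fold lower, against 0.19%. At day +14, 6 were higher, against 0.433%, and 3 lower, against 0.592%. At day +7, 19 genes of the list had an interval above 0 and 7 one below it, against 5.15% and 5.65% of all genes. At day +14 the counts were 21 and 8, against 8.92% and 8.39%. The genes named next were picked after their values were seen. Klrg1, the killer cell lectin-like receptor of terminal effector cells, was at 18.1 CPM in cells without and 61.5 CPM in cells with 3 or more Ly6c2 UMIs at day +7, a log2 ratio of 1.77 (1.34 to 2.20), and at 16.4 and 72.8 CPM at day +14, a ratio of 2.15 (1.70 to 2.63). Ccr2, the chemokine receptor of inflammatory homing, had ratios of 0.74 (0.54 to 0.94) and 2.20 (1.62 to 2.81), and Cx3cr1, a receptor of effector cells, of 0.54 and 1.18. Gzma, which encodes granzyme A, had ratios of 0.86 and 1.05 although its level in the cells with 3 or more Ly6c2 UMIs was 6061 CPM at day +7 and 667 at day +14.

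From the same list and picked the same way, Id3, Tcf7 and Xcl1 were lower in these cells. Id3, a regulator of memory precursors, had log2 ratios of -1.15 (-1.69 to -0.64) and -1.56 (-2.17 to -0.99). Tcf7, which encodes the factor TCF-1, had ratios of -0.68 (-1.29 to -0.08) and -1.20 (-1.68 to -0.74), and Xcl1, a chemokine that attracts cross-presenting dendritic cells, of -1.05 and -1.85. In cycling CD8 cells Klrg1 kept its direction, with ratios of 1.61 and 1.69, whereas Xcl1 (0.87 and -1.51) and Id3 (0.13 and -1.92, averaging under 10 CPM there) did not have the same sign on both days. Of 35 listed genes at the floor there at day +7, 18 had an interval above 0 and 5 below, against 7.71% and 8.22% of all genes. Of 33 at day +14, 20 lay above and 6 below, against 8.28% and 7.61%.

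**Figure D4:**
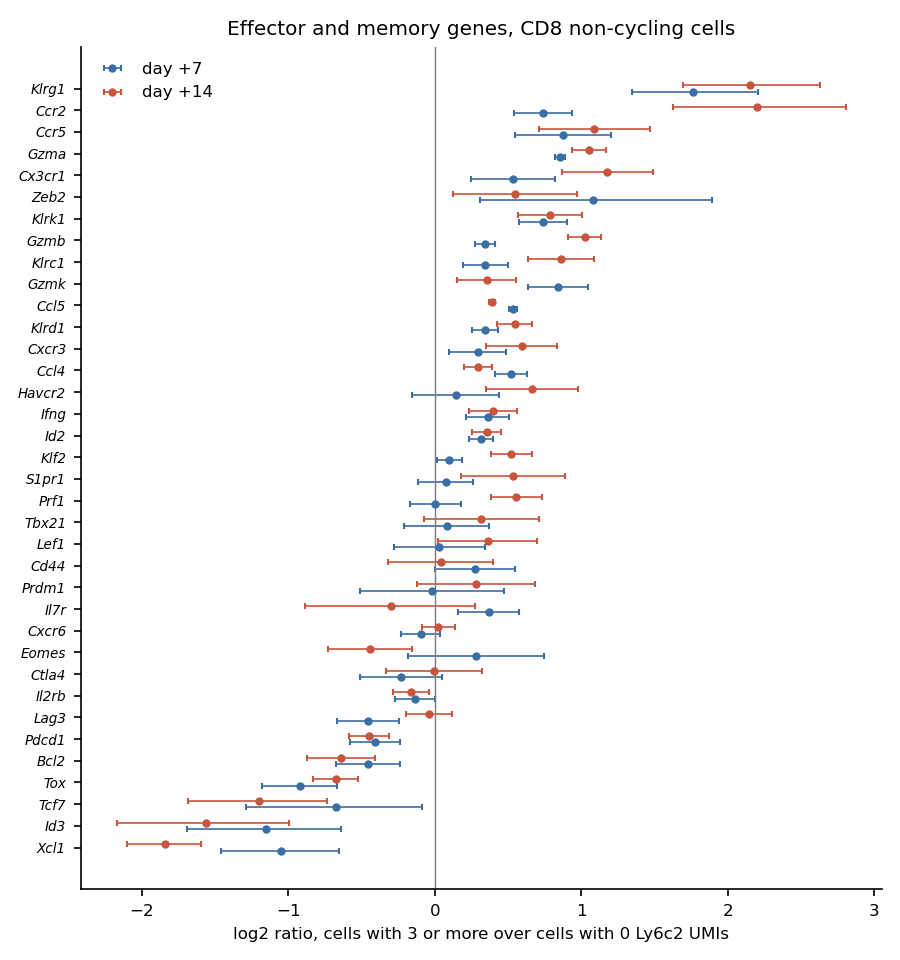
Log2 ratio of CPM in thinned non-cycling CD8 cells with 3 or more over those with 0 Ly6c2 UMIs, for the 36 effector and memory genes that reached the 10 CPM floor on both days. Points are ratios and bars 95% exact conditional binomial intervals at day +7 (blue) and day +14 (red), and Klrg1 (1.77 and 2.15) lies at the top and Xcl1 (-1.05 and -1.85) at the bottom.

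The interferon response list also ran higher along Ly6c2. In non-cycling CD8 cells 21 of its 42 genes at the floor at day +7 and 15 of 43 at day +14 had an interval above 0 and 0 an interval below it, with medians of 0.33 and 0.20. Of all genes at the floor in these cells, 5.15% and 8.92% had an interval above 0 and 5.65% and 8.39% one below it. In cycling CD8 cells 14 of 34 and 14 of 40 had an interval above 0, again with 0 below, and the medians were 0.29 and 0.23, beside 7.71% and 8.28% of all genes above 0 and 8.22% and 7.61% below. Other GPI-anchored proteins of lymphocytes showed medians of 0.04 and 0.12 in non-cycling CD8 cells.

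The lists around the members were also compared between the days. Of 37 interferon response genes at the floor in CD8 cells, 0 were past 2-fold in either direction, against 3.2% of all genes. Their median log2 ratio was 0.13. Among the higher were Ifi47 (0.95) and Gbp8 (0.71), and the lowest were Bst2 (-0.30), Ifi27l2a (-0.28) and Psmb10 (-0.24). Of 4 receptor genes at the floor, 0 were past 2-fold, with Ifnar2 at 0.92 and Ifnar1 at 0.61, the chains of the type I interferon receptor, Il27ra at 0.25 and Ifngr1 at -0.13. Of 14 genes that build, attach or remodel the GPI anchor, 0 were past 2-fold, with a median of 0.20. The highest were Mppe1 (0.60), Pigq (0.53) and Pigp (0.46) and the lowest Dpm1 (-0.23), Dpm3 (-0.19) and Pigt (-0.12). The median of all genes at the floor in CD8 cells was 0.18. With 3.2% of those genes past 2-fold, a count of 0 in lists of this size does not set them apart.

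Other GPI-anchored proteins were less even, with 3 of 8 past 2-fold higher and 0 lower in CD8 cells, against 1.8% and 1.39% of all genes. Izumo1r, the folate receptor 4 of regulatory T cells, went from 2.95 to 19.4 CPM (2.72), Art2b, an ADP-ribosyltransferase, from 15.3 to 39.9 (1.39), and Cd160, an inhibitory receptor, from 129.7 to 263 (1.02). Izumo1r was below the floor of 10 CPM on the earlier day and met it as an average only through its level on the later day. Its place among the genes past 2-fold therefore depends on how the floor was set. Art2b and Cd160 were above the floor on both days. The shares of all genes were taken with the same floor. Cd52 (-0.62), Cd48 (-0.35) and Thy1 (-0.32) had the lowest ratios of this list. Of 37 effector and memory genes, 5 were past 2-fold higher and 6 lower. Eomes (2.07), a T-box factor of memory cells, Xcl1 (1.74) and Tox (1.70), a factor of chronically stimulated cells, were the highest, and Gzma (-3.89), Il2ra (-2.84), the high-affinity interleukin 2 receptor chain, and Ccr2 (-2.54) the lowest.

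Of 40 other family genes listed, 35 were in the files, 17 had no UMI in any gate and 5 reached 10 CPM in a gate. Ly6k, a family member at chr15:74796874-74799986, was the only one to reach it in CD8 cells, with 214 UMIs (3.24 CPM, interval 2.82 to 3.70) at day +7 and 1489 UMIs (23.2 CPM, interval 22.1 to 24.5) at day +14, a log2 ratio of 2.84 (2.64 to 3.06). Of all genes at the floor in CD8 cells, 1.8% were more than 2-fold higher at day +14. Ly6k met 10 CPM in CD8 cells only through its level on the later day, so its place among the named genes depends on that floor. It was higher at day +14 in both non-cycling (1.77 and 10.2 CPM) and cycling CD8 cells (3.27 and 25.7 CPM), while CD4 cells held 6 and 7 UMIs (1.30 and 1.41 CPM). Ly6k overlaps the antisense gene Gm17189, so whether these UMIs came from 1 or the other was not tested. Plaur, the urokinase receptor, was at 79.9 and 93.9 CPM in the neutrophil gate, Ly6i was at 13.9 CPM from 11 UMIs there at day +7, and Ly6d was at 11.7 CPM from 3 UMIs in Foxp3+ cells at day +14.

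The genes most like each member over the 12 sums, among 7057 that averaged 10 CPM or more, were Icos (Pearson r of 0.975), Batf (0.967), Cd5 (0.965), Pkp3 (0.964) and Gata3 (0.963) for Ly6a. For Ly6e they were Ly6a itself (0.954), Lgals7 (0.943), Maf (0.942), Il1rl1 (0.941) and Pkp3 (0.929). For Ly6c2 they were Nod1 (0.955), Lyst (0.948), Slc27a4 (0.925), Flot1 (0.919) and Ndel1 (0.915), and over the 10 sums without neutrophils, where the leading genes changed, Klrc2 (0.95), an activating killer cell lectin-like receptor, and Nkg7 (0.943), a cytotoxic granule gene, came at the head. Over the same 10 sums, of the genes named for Ly6a only Icos (0.963) stayed among its first 5. Of those named for Ly6e, Ly6a, Lgals7 and Maf stayed. For Ly6c1, with under 10 CPM in nearly all sums, no likeness was computed.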

How the data were processed

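Splenic donor T cells of 2 libraries, 1 per day, were analysed. The authors deposited whole-number UMI counts, not normalized, of every gene in the barcodes that passed Cell Ranger 6.1.2 on mm10 (versions per the submitters' processing notes). The accompanying gene and barcode lists hold no measurement. The totals of the files were 87124828 and 84233811 UMIs.

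Counts were summed over the cells of a gate and expressed as CPM of that gate, with exact Poisson intervals, exact conditional binomial intervals for ratios and exact Clopper-Pearson intervals for shares, all at 95% and covering counting error only. A count of 0 allows up to 3 counts. With 1 library per day no test was possible and no p is given. Past 2-fold describes these libraries, among genes averaging 10 CPM or more in the 2 groups compared, with 1 CPM added to both values. Neutrophils had at least 1% of UMIs in the 9 neutrophil genes and at least 3 of them detected. Cells with at least 3 macrophage, erythroid or B cell genes were kept out of the T gates. No doublet caller was run here, although the study ran Scrublet.

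The named genes are the 4 members, family genes at 10 CPM in a gate, up to 3 highest and 3 lowest ratios of each list in CD8 cells, and the 5 genes most like each member. Outside this rule, Klrg1, Cx3cr1, Id3, Tcf7, Klrc2 and Nkg7 were named after their values were seen, and Thy1, Ikzf2, Ctla4 and other lineage markers were named to describe gates. The members and gene lists were chosen with earlier results of these data known. Calculations ran in Python 3.11.15 with numpy 2.4.6, scipy 1.17.1, pandas 2.3.3 and matplotlib 3.10.9 and were tested on simulated data. Positions and transcripts came from GENCODE M21 and start regions from RefSeq, in which 2 of the 4 members were matched. Alternatives covered scaling, the mean over cells, thinning, the mitochondrial limit, gate limits, the deepest cells and the floor. Those on Foxp3+ cells with Cd8, on other regulatory genes, on neutrophils with T cell UMIs and on 10 sums were chosen after seeing the data.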

Additional observations from a re-analysis of the deposited data

Results flagged for a closer look

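In 6 comparisons the days moved opposite ways in different cells, with both intervals clear of 0. With 1 library per day, none of these differences was tested. For Ly6a, the log2 ratio of day +14 over day +7 was 0.078 in non-cycling and -0.16 in cycling CD8 cells, though the value in non-cycling cells was -0.13 relative to the median of all genes. For Ly6a in CD4 cells it was 0.15 when not cycling and -0.22 when cycling, the latter 0.0033 with cells thinned to 4000 UMIs. For Ly6a it was 0.71 in the neutrophil gate and -0.069 in T cells, and -0.19 in neutrophil-gated cells with fewer than 2 T cell UMIs. For Ly6c2, 0.17 in CD4 cells stood against -0.21 in CD8 cells, and the CD4 value was -0.0098 with cells thinned. For Ly6c2, 0.73 in Foxp3+ cells also stood against the CD8 value, from 32 and 36 UMIs, with 19 of the 36 in a single cell. For Ly6c2, the neutrophil gate gave 0.13 and T cells -0.20.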

How the results depend on the processing

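No paired analysis was possible because each day is 1 library and no replicate numbers exist. In all T cells, scaling by the median ratio moved the log2 ratios of day +14 over day +7 to -0.29 for Ly6a, -0.43 for Ly6c2 and -0.41 for Ly6e. The mean of per-cell CPM gave 0.094, -0.25 and -0.15, and thinning to 4000 UMIs gave 0.024, -0.26 and -0.21, so that Ly6a changed sign under both. Thinning also left out cells under 4000 UMIs, 140 T cells at day +7 and 886 at day +14. Depth and this loss of cells cannot be told apart. Leaving out the deepest 5% of cells gave -0.040 for Ly6a, and keeping other-lineage cells gave -0.17 for Ly6c2. With a floor of 1 CPM, 5.34% of genes were past 2-fold. Among ratios with a reported interval clear of 0, signs also changed for Ly6a in non-cycling CD8 cells with scaling by the median ratio (-0.13). When thinned, signs changed for Ly6a in cycling CD4 cells (0.0033) and Ly6c2 in CD4 cells (-0.0098). The sign changed too for Ly6c2 with every T cell that had a Foxp3 UMI (-0.20). It did so for Ly6a in neutrophil-gated cells with fewer than 2 T cell UMIs (-0.19). The causes were not tested, apart from depth for shares, which rise with it by construction. At 2000 UMIs the shares of T cells with a UMI at day +7 and day +14 were 63.0% and 65.3% for Ly6a, 41.5% and 41.7% for Ly6c2, 76.8% and 71.4% for Ly6e, and 0.0294% for Ly6c1 at day +7. With all UMIs they were 89.4% and 91.3%, 62.4% and 64.2%, and 98.4% and 95.6% for the first 3 genes. Of 51 values over all T cells under an alternative, 26 stayed within the interval, or within 1.5 times the share, of the value reported. Another 23 moved beyond it and 2 changed sign. Of the 292 other values, 227 stayed, 60 moved and 5 changed sign. A change of sign was counted only where the interval of the reported ratio was clear of 0. Ratios with an interval that includes 0 also changed sign and were not counted. For example, Ly6e in CD4 cells kept its sign in 4 of 8 alternatives and Ly6a in CD4 cells in 5 of 8. Ly6c1 rests on 24 and 6 UMIs in T cells, and Ly6c2 in the 40 and 39 Foxp3+ cells on 32 and 36.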

Other observations

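Outside the T cell gates, cells with at least 3 macrophage or monocyte genes numbered 177 and 141 and had Ly6c2 at 380.3 and 519 CPM, Ly6a at 616 and 549 CPM and Ly6e at 797 and 769 CPM, with Thy1 at 364 and 323 CPM beside them. The 5 cells of day +14 with at least 3 B or plasma cell genes had Ly6c2 at 1937 CPM (1649 to 2262) from 160 UMIs and Ly6a at 1513 CPM (1260 to 1803) from 125 UMIs, with Thy1 at 96.9 CPM. Day +7 held 0 such cells.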
